A study of Mus musculus with 4 samples.

Results

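Expression of 8 genes of the vessel wall, Rgs5, Kcnj8, Abcc9, Vtn, Notch3, Anpep, Des and Myh11, was followed in spatial transcriptomes of the mouse brain after photothrombotic injury, in which a light-activated dye clots the vessels of the cortex. They were chosen by name as markers of pericytes and smooth muscle cells, 8 of the 32285 genes in the files. Earlier results of these data were known at the time of this choice. Visium records RNA in spots that can each hold several cells of different types, as counts of unique molecular identifiers (UMIs), which mark single captured molecules. The 4 capture areas each held 2 brain slices. One wild-type slice was at rest, 1 was at 2 days post injury (dpi), 2 were at 7 dpi and 2 at 21 dpi, and a further 2 slices at 21 dpi carried Cthrc1(creER); R26(DTA). These deleter mice are designed to lose cells in which the Cthrc1 promoter drives an inducible Cre and so diphtheria toxin. The study's methods state that the deletion could not be detected in them, so they are treated here as a group of their own. All slices but the one at rest came from injured mice, and per the study's methods each slice was from a mouse of its own. Sex and age were not given per slice.

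Pericytes sit on the outside of capillaries within the basement membrane, and smooth muscle cells wrap arteries and arterioles. Both are called mural cells. They set vessel tone, keep the blood-brain barrier closed and can take part in scarring after an injury. In this injury model, the study traced pericyte and smooth muscle lineages and reported that they contributed minimally to the fibroblasts of the lesion. In brain, Rgs5, Vtn, Kcnj8 and Abcc9 are used mainly as pericyte markers, Myh11 as a marker of smooth muscle, and Notch3, Anpep and Des as markers of both. Anpep is also carried by fibroblasts and myeloid cells.

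Spots were divided by collagen I. Those with at least 5 Col1a1 UMIs per 10000 are called fibrotic, those 1 to 3 hexagonal steps away form the ring, and all others are the rest of the slice. The slices at 7 and 21 dpi held between 112 and 392 fibrotic spots. The slice at rest held 3 and the one at 2 dpi held 26, of which 17 had a single Col1a1 UMI, so neither of these was used for fibrotic levels. Slice 1 at 7 dpi stood apart: 68.8% of its fibrotic spots lay at the tissue edge, against 18.4% to 34.7% in the other 5 slices, and their median depth was 4924 UMIs, against 9207 to 13879. The slice at 2 dpi had a median of 2634 UMIs per spot, and the others had 12447 to 16158. Each slice held 11332780 to 23677298 UMIs in all.

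Levels here are shares of the UMIs of a zone, not UMIs per spot. On this scale the 8 genes were higher in fibrotic than in other spots within each of the 6 slices at 7 and 21 dpi. At 7 dpi the median depth was 4924 and 9207 UMIs in fibrotic spots and 16765 and 17857 in other spots. A share can thus be higher without more UMIs per spot, which were not compared. In the test within slices, 6 of 8 passed at 7 dpi, 7 of 8 at 21 dpi and 8 of 8 in deleter slices, all of them upward. With DESeq2 these counts were 5, 6 and 6 of 8. Over all 14989 genes tested, 25.3%, 28.5% and 29.2% were called higher in these comparisons. The median log2 fold change of the 8 was 1.13 at 7 dpi, 1.37 at 21 dpi and 1.68 in deleter slices, against -0.01, -0.01 and 0.00 over all genes tested. The scaling of the sums before the test assumes that most genes do not differ. The values over all genes were thus largely set by that scaling. In a spot, more cells of a type, more RNA per cell and less RNA from other cells cannot be told apart. The other cells of these spots moved too: all 6 fibroblast genes and all 8 macrophage genes of the lists used here were higher at both times, all 4 neuronal genes were lower, and 7 of 12 endothelial genes were higher at 7 dpi and 8 of 12 at 21 dpi. Fibrotic spots were chosen by Col1a1, a fibroblast gene, so the rise of the fibroblast list there was largely set by that choice. The part of these other cells in the results on the 8 genes was not tested.

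**Figure D1:**
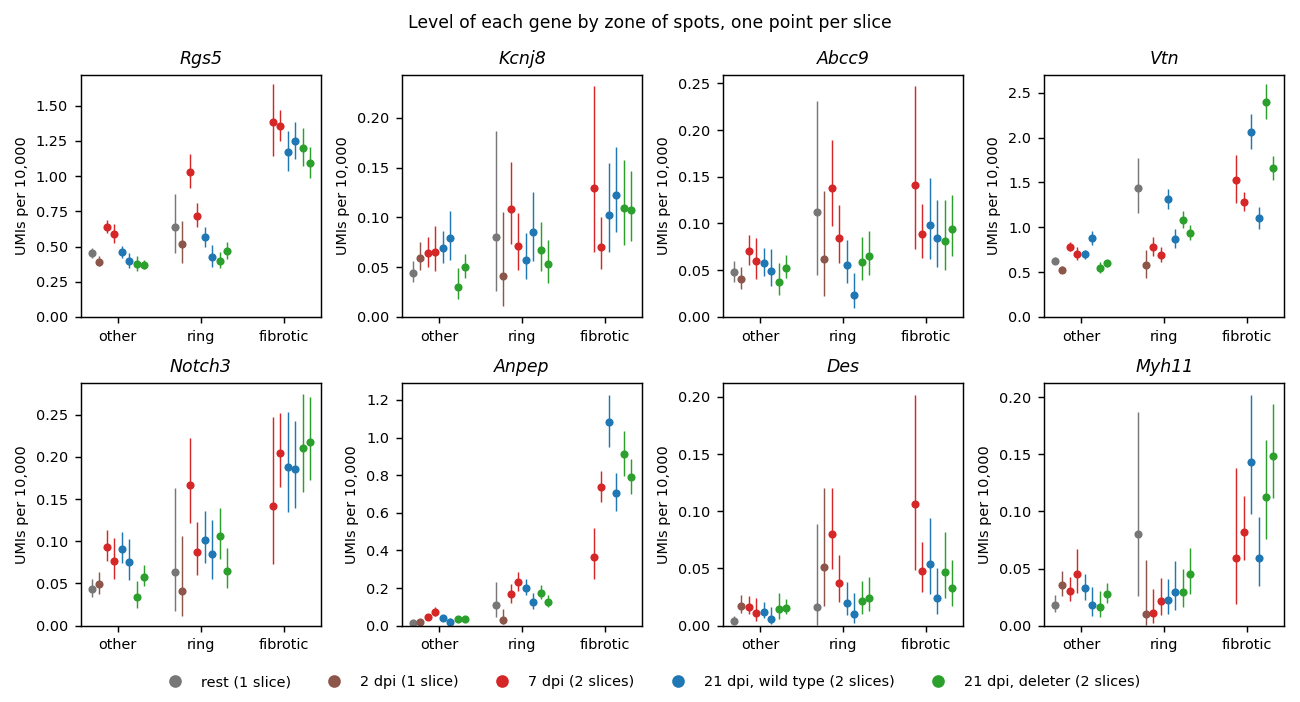
Level of each gene in UMIs per 10,000 (vertical axis) in other, ring and fibrotic spots, 1 point per slice, with exact Poisson 95% intervals as bars, which cover counting error only. Fibrotic levels at rest and at 2 dpi are left out because they rest on 3 and 26 spots; the fibrotic points of the other slices lie above the other-spot point of the same slice for every gene.

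Rgs5, a regulator of G-protein signalling and a widely used brain pericyte marker, was raised in fibrotic spots of every group. In fibrotic spots it measured 1.38 and 1.36 UMIs per 10000 at 7 dpi, 1.17 and 1.25 at 21 dpi, and 1.20 and 1.09 in deleter slices. In other spots it measured 0.641 and 0.592, 0.460 and 0.397, and 0.376 and 0.370. The lowest fibrotic value lay above the highest other value. The log2 fold change was 1.26 ± 0.16 (SE) at 7 dpi (adjusted p = 4.78e-05), 1.54 ± 0.16 at 21 dpi (adjusted p = 4.92e-06) and 1.60 ± 0.16 in deleter slices (adjusted p = 3.59e-06), with 2 slices per group.

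Kcnj8 and Abcc9 encode the pore and the regulatory subunit of the ATP-sensitive potassium channel of mural cells. They are neighbours on the minus strand of mouse chromosome 6 (GRCm38, GENCODE M21), at chr6:142564837-142571614 and chr6:142587862-142702315, with 16247 bases between them. Both promoters (RefSeq, GRCm38.p6, minus strand, 250 bases before to 50 after the start) are shown because the 2 subunits form 1 channel, and that of Vtn (plus strand of chromosome 11) because it holds most matches. Capitals mark TGGGAA or its reverse complement, the core bound by RBPJ, the DNA-binding partner of Notch receptors.
Kcnj8, chr6:142571565-142571864: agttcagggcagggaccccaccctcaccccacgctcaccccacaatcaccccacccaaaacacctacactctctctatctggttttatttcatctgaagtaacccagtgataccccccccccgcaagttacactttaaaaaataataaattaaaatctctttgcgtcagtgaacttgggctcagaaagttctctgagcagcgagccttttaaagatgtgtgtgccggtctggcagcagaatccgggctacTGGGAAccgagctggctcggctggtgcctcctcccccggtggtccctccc
Abcc9, chr6:142702225-142702524: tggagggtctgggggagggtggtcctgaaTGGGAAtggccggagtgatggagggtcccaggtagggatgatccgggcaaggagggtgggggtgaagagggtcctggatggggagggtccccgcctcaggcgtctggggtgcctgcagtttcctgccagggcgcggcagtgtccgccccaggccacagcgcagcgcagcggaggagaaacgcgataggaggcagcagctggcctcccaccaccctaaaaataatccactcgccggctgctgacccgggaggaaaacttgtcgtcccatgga
Vtn, chr11:78498870-78499169: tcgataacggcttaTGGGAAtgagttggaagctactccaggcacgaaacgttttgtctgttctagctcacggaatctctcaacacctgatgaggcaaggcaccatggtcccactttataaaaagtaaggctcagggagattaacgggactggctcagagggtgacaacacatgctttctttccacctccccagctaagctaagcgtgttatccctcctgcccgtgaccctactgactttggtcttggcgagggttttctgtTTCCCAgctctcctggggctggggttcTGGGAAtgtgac
The other genes lie at chr1:169655501-169695813 (Rgs5, plus strand), chr11:78499091-78502324 (Vtn, plus), chr17:32120820-32166852 (Notch3, minus), chr7:79821803-79861059 (Anpep, minus), chr1:75360329-75368579 (Des, plus) and chr16:14194535-14291372 (Myh11, minus).
Of the 8 genes, 7 had a promoter sequence. Searched on both strands, TGGGAA was in 3 of these 7, against 25.6% of 32817 promoter windows of the same length, once in Kcnj8, once in Abcc9 and 3 times in Vtn. The E-box CANNTG was in 6 of 7, against 72.3%, and the CArG box of serum response factor in 0 of 7, against 1.63%. No TGGGAA match overlapped an E-box in these windows.

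Kcnj8 measured 0.130 and 0.0706 UMIs per 10000 in fibrotic spots at 7 dpi, 0.103 and 0.123 at 21 dpi, and 0.109 and 0.107 in deleter slices. Its levels in other spots were 0.0640 and 0.0656, 0.0688 and 0.0791, and 0.0305 and 0.0502. Slice 2 at 7 dpi lay within the range of other spots. The log2 fold change was 0.60 ± 0.34 at 7 dpi (adjusted p = 0.163) and 0.62 ± 0.30 at 21 dpi (adjusted p = 0.096), and only that in deleter slices, 1.34 ± 0.31, passed (adjusted p = 0.00232). A difference between deleter and wild-type slices in this zone effect was not tested.

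Abcc9 measured 0.142 and 0.0888 UMIs per 10000 in fibrotic spots at 7 dpi, 0.0984 and 0.0841 at 21 dpi, and 0.0817 and 0.0937 in deleter slices. In other spots it ranged from 0.0377 to 0.0701, below every fibrotic value. These levels rest on 12 to 39 UMIs in each fibrotic zone. The log2 fold changes, 0.87 ± 0.31 at 7 dpi (adjusted p = 0.0336), 0.82 ± 0.31 at 21 dpi (adjusted p = 0.0366) and 0.91 ± 0.30 in deleter slices (adjusted p = 0.0186), passed narrowly. Without edge spots the adjusted p was 0.0612, 0.206 and 0.0536, with DESeq2 it was 0.103, 0.104 and 0.0602, and leaving out either slice of the group compared also ended each call.

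Vtn encodes vitronectin, an adhesive matrix and plasma protein that brain pericytes make. In fibrotic spots it measured 1.52 and 1.28 UMIs per 10000 at 7 dpi, 2.06 and 1.10 at 21 dpi, and 2.40 and 1.66 in deleter slices. In other spots it ranged from 0.546 to 0.875, so the zones did not overlap. Vtn was higher in fibrotic spots by 0.99 ± 0.24 on the log2 scale at 7 dpi (adjusted p = 0.00473), 0.97 ± 0.24 at 21 dpi (adjusted p = 0.00375) and 1.77 ± 0.24 in deleter slices (adjusted p = 3.95e-05). Without slice 1 at 21 dpi the log2 fold change there was 0.32 (adjusted p = 0.222), and without either slice at 7 dpi the call was lost (adjusted p = 0.0793 and 0.0939).

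Notch3, the Notch receptor of mural cells, measured 0.142 and 0.205 UMIs per 10000 in fibrotic spots at 7 dpi, 0.188 and 0.186 at 21 dpi, and 0.210 and 0.218 in deleter slices. All 6 values were above those in other spots, which ranged from 0.0341 to 0.0938. Its log2 fold change was 1.29 ± 0.34 at 7 dpi (adjusted p = 0.00777), 1.20 ± 0.33 at 21 dpi (adjusted p = 0.0072) and 2.11 ± 0.32 in deleter slices (adjusted p = 0.000122). Without slice 2 at 7 dpi it was 0.67 (adjusted p = 0.410), and without slice 2 at 21 dpi it was 1.09 (adjusted p = 0.0836). Of 9 other genes of the Notch pathway, 6 were higher at 7 dpi, and 5 were higher and 1 lower at 21 dpi. Of all genes tested, 25.3% and 28.5% were called higher at these times. The ligand gene Jag1 rose at 7 dpi (log2 fold change 2.70 ± 0.22, adjusted p = 2.46e-06) and 21 dpi (2.45 ± 0.22, adjusted p = 1.66e-06). Heyl, a Notch target of mural cells, rose by 2.06 ± 0.40 (adjusted p = 0.000977) and 1.79 ± 0.37 (adjusted p = 0.00119).

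Anpep, the membrane peptidase CD13, differed most among the 8. In fibrotic spots it measured 0.366 and 0.737 UMIs per 10000 at 7 dpi, 1.08 and 0.704 at 21 dpi, and 0.911 and 0.791 in deleter slices. In other spots it ranged from 0.0221 to 0.0731 and at rest, over the whole slice, it was 0.0171. The lowest fibrotic value, that of slice 1 at 7 dpi, was still above every ring value. The fitted change was 9.80-fold at 7 dpi (log2 3.29 ± 0.19, adjusted p = 2.04e-07), 27.9-fold at 21 dpi (4.80 ± 0.19, adjusted p = 8.86e-09) and 23.4-fold in deleter slices (4.55 ± 0.18, adjusted p = 5.4e-09). All 6 fibroblast genes were higher in this zone, which was chosen by Col1a1. Their summed level was 38.0 to 106 UMIs per 10000 in fibrotic and 1.14 to 1.87 in other spots. The 8 macrophage genes were higher there too, with 63.1 to 95.5 against 3.70 to 12.0.

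Des encodes desmin, the intermediate filament of muscle and of pericytes. It was scarce, with 7 to 21 UMIs in the fibrotic zone of a slice, and measured 0.106 and 0.0478 UMIs per 10000 at 7 dpi, 0.0536 and 0.0245 at 21 dpi, and 0.0467 and 0.0331 in deleter slices. In other spots it ranged from 0.00552 to 0.0167, below all of these. The log2 fold change was 2.51 ± 0.42 at 7 dpi (adjusted p = 0.000357), 2.16 ± 0.46 at 21 dpi (adjusted p = 0.00148) and 1.31 ± 0.40 in deleter slices (adjusted p = 0.0131). The last call was lost with DESeq2 (adjusted p = 0.0634) and without either deleter slice (adjusted p = 0.194 and 0.0672), and that at 21 dpi without slice 1 (adjusted p = 0.0725). The summed level of 5 skeletal muscle genes was lower in fibrotic spots, at 0.0622 to 0.107 UMIs per 10000, than in other spots, at 0.159 to 0.278.

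Myh11, the smooth muscle myosin heavy chain, measured 0.0590 and 0.0819 UMIs per 10000 in fibrotic spots at 7 dpi, 0.143 and 0.0596 at 21 dpi, and 0.113 and 0.149 in deleter slices. In other spots it ranged from 0.0162 to 0.0450. The log2 fold change was 0.95 ± 0.39 at 7 dpi (adjusted p = 0.0629), 1.97 ± 0.36 at 21 dpi (adjusted p = 0.000523) and 2.53 ± 0.35 in deleter slices (adjusted p = 4.67e-05).

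**Figure D2:**
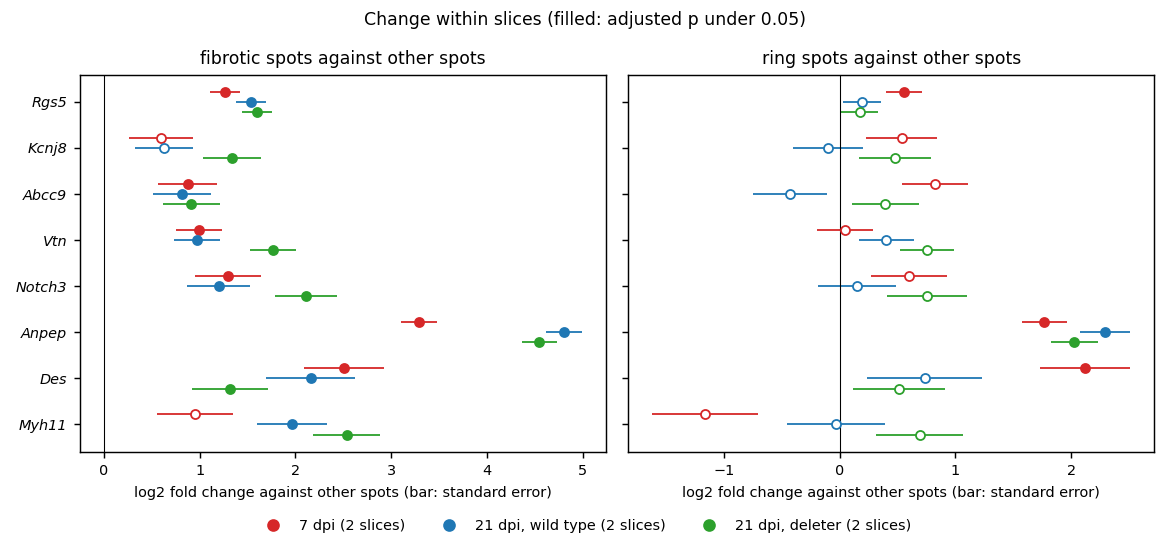
Log2 fold change (horizontal axis) of each gene in fibrotic (left) and ring (right) spots against other spots of the same slices, from edgeR with slice as a block; bars are standard errors, colours are groups of 2 slices, and filled points passed an adjusted p of 0.05. Anpep lies farthest right in fibrotic spots at each time, between 3.29 and 4.80, and is filled in all 3 groups in the ring.

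Within fibrotic spots, Myh11 was higher at the tissue edge than in the interior of every slice. At the edge, in spots with fewer than 6 neighbours over tissue, its fibrotic level was 0.102 and 0.268 UMIs per 10000 at 7 dpi, 0.356 and 0.282 at 21 dpi, and 0.389 and 0.392 in deleter slices. In interior fibrotic spots it was 0 (0 UMIs) and 0.0368, 0.0809 and 0.0244, and 0.0256 and 0.0944. No test was made of this difference. The edge held 107 of the Myh11 UMIs of fibrotic spots, against 66 in the interior. Without edge spots the log2 fold change against other spots was -0.41 at 7 dpi (adjusted p = 0.621), 0.99 at 21 dpi (adjusted p = 0.124) and 1.59 in deleter slices (adjusted p = 0.0138).

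In proportion to the interior level, the pericyte markers showed smaller gaps. Abcc9 was higher at the edge in 5 of 6 slices (median 0.128 against 0.0782 UMIs per 10000) and Kcnj8 in 4 of 6 (0.117 against 0.0978). Edge levels in fibrotic spots were above interior levels in 5 of 6 slices for Rgs5 (median 2.03 against 1.04 UMIs per 10000) and in 5 of 6 for Vtn (2.31 against 1.55), slice 1 at 7 dpi being the exception in both. Notch3 was higher at the edge in 6 of 6 (0.274 against 0.162). Anpep was higher at the edge in 1 of 6 (0.570 against 0.826). Without edge spots Rgs5, Vtn, Notch3, Anpep and Des passed in fibrotic spots in all 3 groups, with adjusted p of at most 0.0299. Abcc9 then passed in no group, and Kcnj8, like Myh11, in deleter slices alone.

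**Figure D3:**
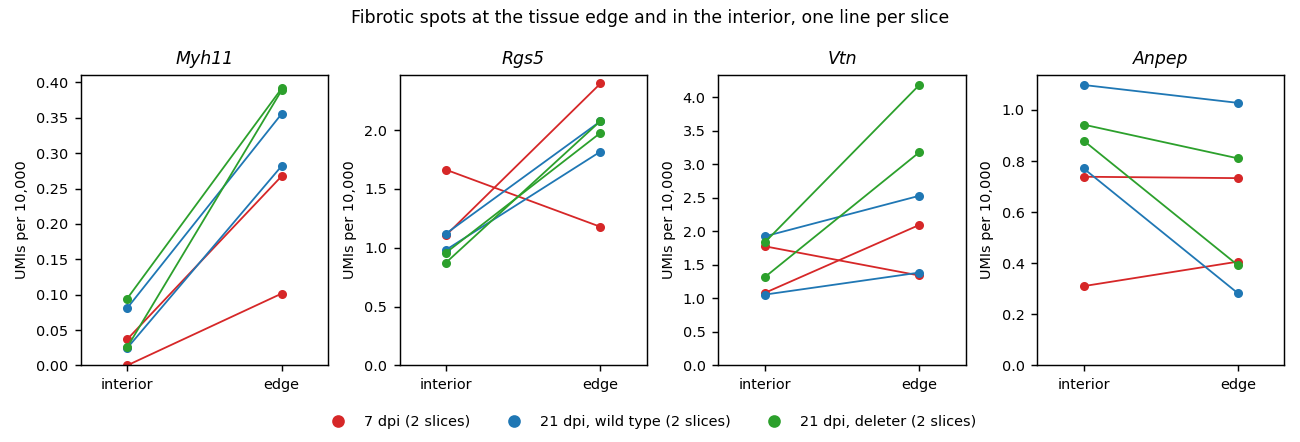
Level in UMIs per 10,000 (vertical axis) of Myh11, Rgs5, Vtn and Anpep in interior and edge fibrotic spots, 1 line per slice. Every Myh11 line rises towards the edge, from a median of 0.0312 to 0.319, and 5 of 6 Anpep lines fall.

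In the ring, which was set against the same other spots, fewer of the 8 passed. At 7 dpi 3 of 8 were called higher, against 13.1% of all genes tested, and at 21 dpi and in deleter slices 1 of 8, against 6.75% and 8.85%. Anpep was the one called in every group, with log2 fold changes of 1.77 ± 0.20 (adjusted p = 0.000115), 2.29 ± 0.21 (adjusted p = 0.000271) and 2.03 ± 0.20 (adjusted p = 0.000112). Its level stepped down with each of the first 3 steps in all 6 slices. In slice 1 at 21 dpi it went from 1.08 UMIs per 10000 in fibrotic spots to 0.295, 0.187 and 0.107 at 1, 2 and 3 steps, and was 0.0262 beyond 10 steps.

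Rgs5 was raised in the 7 dpi ring, at 1.03 and 0.719 UMIs per 10000 (log2 fold change 0.55 ± 0.16, adjusted p = 0.0267). The call rested on slice 1 at 7 dpi: Rgs5 measured 1.16 at 3 steps there and 0.661 in slice 2, and without slice 1 the log2 fold change was 0.29 (adjusted p = 0.521). With DESeq2 the adjusted p was 0.0815. Des was raised in the same ring (0.0797 and 0.0370 UMIs per 10000, log2 fold change 2.12 ± 0.39, adjusted p = 0.00286), and without slice 1 it did not pass (1.71, adjusted p = 0.235). Its highest level, 0.150 and 0.0589 UMIs per 10000, was at 1 step from fibrotic spots in both 7 dpi slices, from 14 and 10 UMIs. At 21 dpi Rgs5 measured 0.565 and 0.428 in the ring, and Des 0.0200 and 0.00987. Neither passed there (adjusted p = 0.510 and 0.426).

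Myh11 was at 0.0109 and 0.0212 UMIs per 10000 in the 7 dpi ring, below the other spots of both slices, from 3 and 8 UMIs (log2 fold change -1.17 ± 0.46, adjusted p = 0.0927). The remaining ring changes of the 8 genes had adjusted p between 0.0572, for Vtn in deleter slices, and 0.981, for Myh11 at 21 dpi.

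**Figure D4:**
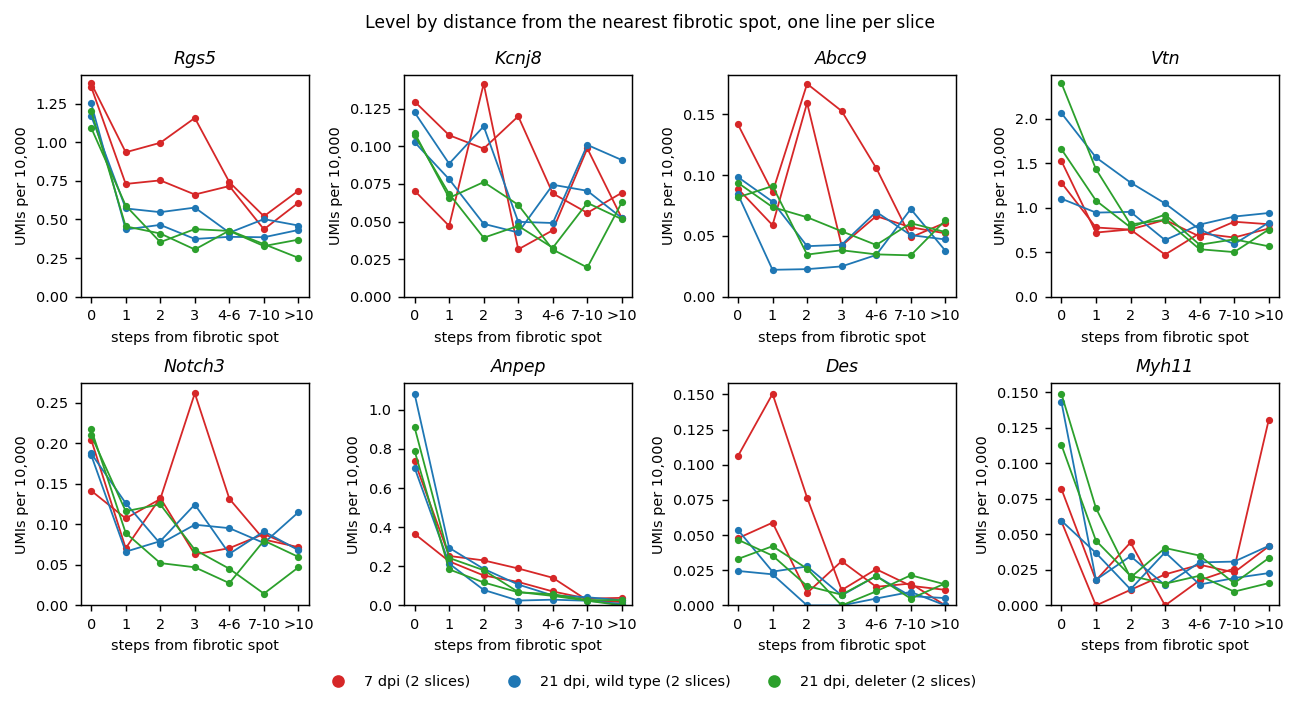
Level in UMIs per 10,000 (vertical axis) against hexagonal steps from the nearest fibrotic spot (horizontal axis, 0 for fibrotic spots, the last 3 positions being bins of several steps), 1 line per slice, for bins of at least 10 spots. Anpep declines over the first 3 steps in all 6 slices, whereas Rgs5 in the 4 slices at 21 dpi drops from at least 1.09 to at most 0.590 at the first step.

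Between 7 and 21 dpi, none of the 8 passed in fibrotic, ring or other spots with edgeR or with DESeq2, where 4.39%, 2.72% and 0.0204% of genes tested were called. At an unadjusted p under 0.05 there were 0, 3 and 1 of the 8. Over all genes tested, 2470 of 13289, 2598 of 13965 and 1554 of 14738 had such a p. Each time and genotype lay on a capture area of its own, so area and group cannot be told apart in these comparisons. Anpep was 0.53 ± 0.27 higher in fibrotic spots on the log2 scale (adjusted p = 0.332) and Rgs5 was at -0.20 ± 0.14 (adjusted p = 0.507). The 3 in the ring were Rgs5 (-0.88 ± 0.24, adjusted p = 0.0958), Abcc9 (-1.48 ± 0.45, adjusted p = 0.13) and Des (-1.92 ± 0.59, adjusted p = 0.131). Rgs5 in other spots was at -0.51 ± 0.13 (adjusted p = 0.251).

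The step from other to fibrotic spots was compared between the times as an interaction. It was called for 1 of 8 genes, Anpep, whose step was 1.51 ± 0.28 larger on the log2 scale at 21 dpi than at 7 dpi (adjusted p = 0.0378, 0.407% of genes called). DESeq2 gave no adjusted p for it. The step also depends on the other-spot level of Anpep, which was 0.0473 and 0.0731 UMIs per 10000 at 7 dpi and 0.0428 and 0.0221 at 21 dpi. The last of these rested on 12 UMIs. In fibrotic spots alone Anpep did not pass between the times. Without slice 1 at 7 dpi the difference was 1.38 (adjusted p = 0.257), and leaving out any one of the 4 wild-type slices, or deleter slice 1, ended the call. For Myh11 the difference was 1.02 ± 0.53 (adjusted p = 0.406). In the ring none of the 8 passed (0% of genes called), and DESeq2 called 0 of the 3 for which it gave an adjusted p. An unadjusted p under 0.05 was found for 1 of the 8 and for 1315 of all 14989 genes tested. The furthest from 0 were Des (-1.39 ± 0.64) and Abcc9 (-1.26 ± 0.43).

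Deleter slices were compared with the same wild-type slices at 21 dpi. Cthrc1 itself, the gene whose promoter drives Cre, was at 0.101 and 0.132 UMIs per 10000 in fibrotic spots of deleter slices and at 0.219 and 0.175 in wild-type ones. None of the 8 passed with edgeR or DESeq2 in any zone, where 0.0226% of genes were called in fibrotic spots and 0% in ring and other spots. At an unadjusted p under 0.05 there were 0 of the 8 in fibrotic, 0 in ring and 2 in other spots. Over all genes tested, 839 of 13289, 323 of 13965 and 413 of 14738 had such a p. The log2 differences ran from -0.07 to 0.44 in fibrotic spots and from -0.72 to 0.78 in other spots.

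The pericyte list held 16 further genes, of which 8 were higher and 2 lower in fibrotic spots at 7 dpi, and 6 higher and 2 lower at 21 dpi. Those that rose included Tbx18, a transcription factor of mural cells (4.26 ± 0.28 at 7 dpi, adjusted p = 4.65e-07), and Pdgfrb, the receptor through which endothelial PDGF recruits pericytes and which fibroblasts also carry (2.69 ± 0.22, adjusted p = 2.61e-06). The fibroblast list had a median log2 fold change of 4.45 in this comparison. Cspg4, the proteoglycan NG2, rose by 1.67 ± 0.17 (adjusted p = 8.96e-06). The study's methods take an Ng2 line to mark oligodendrocyte precursor cells as well as pericytes. Rgs4, which cortical neurons also express, was lower (-1.42 ± 0.25, adjusted p = 0.000582). Higd1b, Atp13a5 and Cox4i2, which in brain are largely confined to pericytes, were at 0.31 ± 0.36, -0.77 ± 0.40 and 0.29 ± 0.44 (adjusted p = 0.502, 0.132 and 0.622), and at 21 dpi at -0.01 ± 0.36, -0.14 ± 0.38 and 0.61 ± 0.43 (adjusted p = 0.982, 0.784 and 0.246). None of these 3 passed at either time. In deleter slices 9 of the 16 were higher and 2 lower. Of all genes tested, 25.3% were called higher at 7 dpi, 28.5% at 21 dpi and 29.2% in deleter slices. Which cells of these mixed spots carried the changes was not tested.

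In the smooth muscle list 14 of 16 genes could be tested. Of these, 8 were higher and 2 lower at 7 dpi and 10 higher and 2 lower at 21 dpi. Over all genes tested, 25.3% and 28.5% were called higher. Acta2, smooth muscle actin, rose by 3.11 ± 0.26 on the log2 scale at 7 dpi (adjusted p = 2.61e-06), Tpm2, a tropomyosin, by 3.03 ± 0.22 (adjusted p = 8.31e-07) and Tagln, an actin-binding protein, by 2.78 ± 0.29 (adjusted p = 1.24e-05). Myofibroblasts make these too. From 7 to 21 dpi, Tpm2 (-1.29 ± 0.19, adjusted p = 0.00455), Tagln (-1.14 ± 0.18, adjusted p = 0.0061), Acta2 (-1.20 ± 0.21, adjusted p = 0.00942) and the connexin gene Gja4 (-1.36 ± 0.27, adjusted p = 0.0195) fell in fibrotic spots, 4 of 13 tested. Of all genes tested in this comparison, 4.39% were called in either direction. Myh11 was at 0.34 ± 0.44 (adjusted p = 0.747). In the pericyte list, Cspg4 (-1.62 ± 0.17, adjusted p = 0.000834) and Ndufa4l2 (-1.18 ± 0.27, adjusted p = 0.0366) fell and Tbx18 rose (0.84 ± 0.18, adjusted p = 0.0265).

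**Figure D5:**
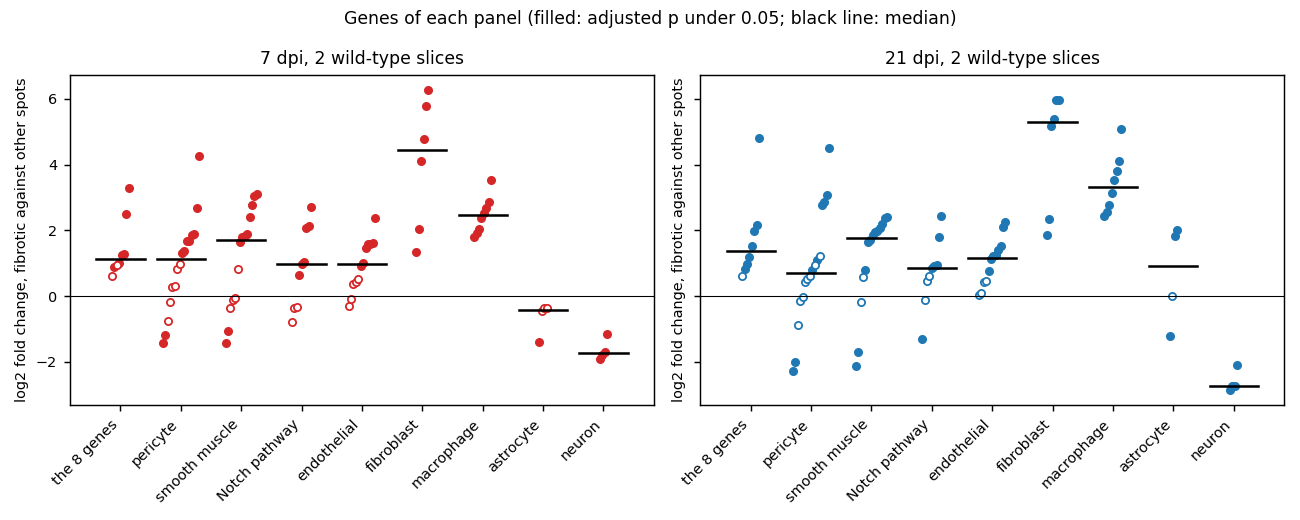
Log2 fold change in fibrotic against other spots (vertical axis) of each tested gene of 9 lists at 7 dpi (left) and 21 dpi (right); filled points passed an adjusted p of 0.05 and black lines are medians. The 8 genes have a median of 1.13 and 1.37, near the endothelial list (0.96 and 1.17) and below the fibroblast list (4.45 and 5.29). Choosing fibrotic spots by Col1a1 favours the fibroblast list.

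Against the endothelial list, the 8 genes summed to 60.4 to 76.2 UMIs per 100 endothelial UMIs in fibrotic spots, 45.4 to 54.7 in the ring and 40.5 to 45.7 in other spots of the 6 slices, and fibrotic and other spots did not overlap. Anpep, which fibroblasts and myeloid cells also carry, had 6.81 to 15.3 against 0.658 to 2.00. Its medians were 12.9 in fibrotic and 1.26 in other spots, where those of the sum were 70.5 and 44.4. A sum without Anpep was not made. Rgs5 had 16.6 to 27.0 in fibrotic and 11.8 to 16.2 in other spots. Notch3 had 2.64 to 4.01 against 1.43 to 2.63. The gaps of Rgs5 and Notch3 were narrow, and Notch3 had as few as 12 UMIs in the fibrotic zone of a slice. Such ranges do not pair the zones of a slice, and no test was made of these ratios. The zones overlapped for the other 5 genes. Kcnj8 had 1.10 to 2.65 and 1.28 to 2.36, Abcc9 1.15 to 2.64 and 1.48 to 1.93, and Vtn 19.98 to 33.9 and 18.1 to 26.1. Des had 0.529 to 1.98 and 0.164 to 0.604, and Myh11 1.10 to 2.45 and 0.548 to 1.23. The 16 further pericyte genes summed to 63.2 to 99.6 in fibrotic and 73.9 to 187 in other spots, and these ranges overlapped. Abundant genes weigh most in such a sum. By level per total UMIs, 8 of the 16 were called higher and 2 lower in fibrotic spots at 7 dpi, where 25.3% of all genes were called higher. Rgs4, which cortical neurons also express, was among the lower ones, and its part in the sum was not tested. The smooth muscle list summed to 46.5 to 87.3 in fibrotic and 41.1 to 70.3 in other spots.

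At rest and at 2 dpi there was 1 slice each, and no test was made. Over whole slices, Rgs5 measured 0.461 (exact Poisson 95% interval 0.429 to 0.495) UMIs per 10000 at rest and 0.403 (0.369 to 0.438) at 2 dpi. Vtn measured 0.663 (0.624 to 0.703) and 0.532 (0.494 to 0.573). The intervals cover counting error only, lay apart for Vtn and overlapped for Rgs5. Des measured 0.00428 (0.00172 to 0.00882) and 0.0222 (0.0148 to 0.0318), from 7 and 29 UMIs, and these intervals lay apart too. For the other 5 genes the intervals of the 2 slices overlapped. Kcnj8 was at 0.0459 at rest and 0.0588 at 2 dpi, Abcc9 at 0.0501 and 0.0420, and Notch3 at 0.0452 and 0.0497. Anpep was at 0.0171 and 0.0199, and Myh11 at 0.0208 and 0.0344. The whole-slice level of each of the 8 at rest lay below all 6 of its fibrotic levels at 7 and 21 dpi. This sets a whole slice against spots chosen by Col1a1, so it does not measure a change with injury. The 3 fibrotic spots at rest, too few for a level, held 14 Vtn, 3 Rgs5 and 2 Notch3 UMIs among 22228. They held 0 UMIs of the other 5 genes.

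Across 42 sums of slice and distance, which share slices, depth and capture areas, log2 levels of the 8 genes followed each other unevenly. Pearson's r was highest for Rgs5 and Anpep (0.77) and for Kcnj8 and Notch3 (0.74), was 0.55 for the channel subunits Kcnj8 and Abcc9, and lowest for Des and Myh11 (0.04). Des and Myh11 had as few as 3 UMIs in the whole ring of a slice, so some of these sums held few. The part of counting error in the low values of r was not tested. Outside the 8, the profiles most like Rgs5 were those of Cd93 (0.92), Sec61b (0.92) and Prrc1 (0.91). For Anpep they were Lyz2 (0.96), Anxa4 (0.96) and Tnfrsf1a (0.96), and for Vtn Arhgap29 (0.88), Slc6a13 (0.85) and Cxcl12 (0.85). Notch3 was most like Clec14a (0.80), Myo1c (0.79) and Klf3 (0.79), and Myh11 most like Aoc3 (0.76), Cdc42ep5 (0.75) and Edn3 (0.75). The others were Tnfsf10 (0.72), Ssr1 (0.69) and Cd2ap (0.69) for Kcnj8, Mmp9 (0.75), Ubtd1 (0.73) and Rab8b (0.73) for Abcc9, and Cep192 (0.81), Gm38335 (0.80) and Dok3 (0.80) for Des.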

How the data were processed

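Per the labels and methods, the authors aligned Visium reads to mm10 with Space Ranger 2.0.0 and deposited a matrix of UMI counts for each area (genes by spots), without normalization. The deposited barcodes, gene names and spot positions are other values used as identifiers; image scale factors were not used. Connected tissue spots gave 2 slices per area. The labels do not say which slice of the first area was at rest; the piece of 1017 spots was taken as rest and that of 1726 spots as 2 dpi, from their outlines. Slice numbers within a group carry no meaning.

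UMIs were summed per slice and zone and tested with edgeR 4.0.16 in R 4.3.3 (TMM scaling, low counts removed by filterByExpr, quasi-likelihood test, p-values adjusted by Benjamini-Hochberg over all genes tested, threshold 0.05). Zones were compared in 1 fit of 18 sums with slice as a block; times and genotypes in 6 sums per zone. Slices are the replicates, 2 per group. Standard errors are the log2 fold change over the square root of F. The steps were tested on simulated data. Likeness is Pearson's r of log2(CPM + 1). Alternatives were DESeq2 1.42.0, other normalization, filters, Col1a1 minimums, spot choices and designs, and each slice left out. The 8 genes, the gene lists and the tests were chosen with earlier results of these data known. Named genes were the 8, listed genes with small adjusted p, and the 3 most alike per gene. Of the pericyte and smooth muscle lists, any tested gene could be named, whatever its result. No promoter is shown for Myh11.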

Additional observations from a re-analysis of the deposited data

Results flagged for a closer look

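The step in Anpep from other to fibrotic spots differed between 7 and 21 dpi in the interaction test, by 1.51 on the log2 scale (edgeR, adjusted p = 0.0378), the step being larger in both 21 dpi slices. In 7 dpi slice 1, the lowest of the 6 slices in fibrotic spots, Anpep rested on 31 UMIs, and 68.8% of that slice's fibrotic spots lay at the edge. Leaving out edge spots gave 1.61 (adjusted p = 0.0405). The call was kept in 7 alternatives and lost in 8. Among those that lost it were a minimum of 10 Col1a1 UMIs per 10000, a fit without the slice block, and wild-type slices alone.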

How the results depend on the processing

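Of the alternative values of the 8 genes, 835 kept direction and side of the threshold, 56 lost their call, 16 gained one and 17 changed sign. The fibrotic calls of Rgs5 and Anpep, and that of Kcnj8 in deleter slices, held in all alternatives run. So did the fibrotic calls of Vtn, Notch3 and Myh11 in deleter slices and that of Des at 7 dpi. The other fibrotic calls of Vtn, Notch3, Des and Myh11, and those of Abcc9, were lost in some. Not every such loss is given above. The fibrotic call of Abcc9 was lost in 11 alternatives and kept in 5 at 7 dpi. It was lost in 12 and kept in 4 at 21 dpi, and lost in 5 and kept in 10 in deleter slices. The causes were not tested. Genes with few UMIs limit the precision, and each group held 2 slices. Slice numbers mark no pairing between groups. The sums of 1 slice are its 3 zones, so slice was the block.

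With DESeq2 the genes called numbered 231 for the difference of the fibrotic effect, 45 for that of the ring effect, 577 and 207 for 21 against 7 dpi in ring and other spots, and 9, 6 and 3 for deleter against wild type in fibrotic, ring and other spots. It gave no adjusted p for 6 of the 8 genes, Anpep among them, in the first. With no filter on low counts the numbers were 652, 189, 1690, 981, 171, 119 and 97, with 1317 for 21 against 7 dpi in fibrotic spots and 2072 for the ring at 21 dpi; of the 8 genes 3 were then called for 21 against 7 dpi in the ring and 2 in the deleter ring, as with library size alone (2). With a minimum of 3 Col1a1 UMIs the ring gave 1568 at 7 dpi (1 of the 8), 475 at 21 dpi and 504 in deleter slices, the differences 314 and 1, and 21 against 7 dpi in other spots 0. With a minimum of 10 the ring gave 2642 at 21 dpi and 3002 in deleter slices (3 of the 8), the fibrotic difference 16 (0 of the 8), and 21 against 7 dpi 238 in ring and 0 in other spots, and 1 of the 8, Anpep, in fibrotic spots. Without the slice block the ring gave 1799 at 7 dpi and 676 at 21 dpi, and the fibrotic difference 2 (0 of the 8). That difference gave 29 with wild-type slices alone (0 of the 8), 125 with other spots 4 to 10 steps away and 134 without edge spots. Deleter against wild type gave 5 in fibrotic and 2 in ring spots without edge spots, and 1 in fibrotic spots with the compared groups alone.

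Leaving out each slice in turn, the genes called in fibrotic spots at 7 dpi numbered 3336 to 7351 (3 to 7 of the 8) and at 21 dpi 6204 to 8326 (4 to 7 of the 8). In the ring they numbered 217 to 3236 at 7 dpi (1 to 4 of the 8), 355 to 1461 at 21 dpi (1 to 2) and 290 to 2014 in deleter slices (1 to 2). The fibrotic difference gave 0 to 404 (0 to 1 of the 8) and the ring difference 0 to 198. For 21 against 7 dpi the numbers were 251 to 633 in fibrotic, 1 to 517 in ring and 0 to 163 in other spots, and for deleter against wild type 1 to 93, 0 to 7 and 0 to 2.

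On the log2 scale, Myh11 in fibrotic spots at 7 dpi was at -0.41 without edge spots. In the 7 dpi ring Vtn was at -0.0153 with library size alone, -0.00684 with DESeq2, -0.0681 with no filter and -0.129 with a minimum of 3, and from -0.0142 to 0.0871 with each slice left out. In the 21 dpi ring Myh11 was at 0.00281 with DESeq2, 0.67 with a minimum of 3, 0.37 with a minimum of 10 and 0.0503 against spots 4 to 10 steps away, and Kcnj8 at 0.20 with a minimum of 10. With each slice left out there, Myh11 ran from -0.54 to 0.61, Kcnj8 from -0.24 to 0.0425 and Vtn from -0.0874 to 0.92. In the deleter ring Abcc9 was at -0.0229 and Des at -0.0830 with a minimum of 3. Rgs5 between the times in fibrotic spots was at 0.11 with a minimum of 10. None of the values that changed sign passed the threshold.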
